A study of Homo sapiens with 16 samples.

Results

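The genes described are 9 genes by which hepatocytes make, store and release glucose, out of 26258 genes in the expression table: G6PC1, PCK1, PCK2, FBP1, SLC37A4, PPARGC1A, GYS2, PYGL and SLC2A2. They were taken by name, each found by its gene ID, and 6 of the 9 passed the filter for testing (a level of 1 CPM, reads scaled to the library total, in 2 or more of 16 libraries). The libraries hold poly-A+ RNA of Huh7 and Hep3B, 2 established human hepatocellular carcinoma (HCC) lines, in 8 groups of 2 replicates. Each line was sequenced as parental cells, as cells labelled DMSO, as IR cells grown under rising doses of Sorafenib, and as CR cells grown under a constantly high dose. Sorafenib is a multikinase inhibitor used against HCC.

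By the labels the resistant libraries were made under 7 μM Sorafenib and all others without the drug, so drug exposure and resistance cannot be told apart in a comparison of resistant with parental cells. The study's text does not say how the DMSO cells were kept, and the methods state extraction in biological triplicates, while the labels give 2 replicates a group and do not say whether these came from separate cultures. If they did not, the p-values measure only the spread between these libraries, which may then be technical. The study describes no repeated derivation of a resistant line. Even with separate cultures, the p-values would not cover the spread between derivations, also where regimens or lines are compared.

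Gluconeogenesis runs glycolysis backwards around its irreversible steps. Phosphoenolpyruvate carboxykinase (PCK1 in the cytosol, PCK2 in mitochondria) makes phosphoenolpyruvate from oxaloacetate, fructose-1,6-bisphosphatase (FBP1) removes a phosphate further up, and glucose-6-phosphatase (G6PC1), fed by the transporter SLC37A4, frees glucose in the endoplasmic reticulum. Glycogen is built by glycogen synthase, of which GYS2 is the liver form, and broken down by glycogen phosphorylase, of which PYGL is the liver form, while SLC2A2 (GLUT2) carries glucose across the hepatocyte membrane and PPARGC1A (PGC-1α) is a coactivator known to raise gluconeogenic transcription in fasted liver.

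In these lines the pathway was uneven. PCK2 was higher in all 4 resistant lines than in the parental cells, PPARGC1A rose in 3 of the 4, and FBP1, already low, fell in 3 of the 4. G6PC1, PCK1 and GYS2 were close to silent in nearly all libraries. PYGL was abundant throughout, and SLC2A2 fell in Hep3B-CR cells. The DMSO cells held more FBP1 than parental cells in both lines.

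Recovered library totals lay between 46613302 and 76860251 reads. Across genes, replicates correlated at Pearson's r of 0.971 to 0.995, and the SD of the replicate difference was 0.566 in Huh7-IR and 0.571 in DMSO cells of Huh7, against 0.236 to 0.310 in the other groups (log2 scale). The difference of replicate 1 from replicate 2 followed the GC content of the transcripts, by Spearman's rho over 13365 genes. It was 0.555 for parental Huh7 cells, -0.526 and -0.400 for the DMSO cells of Huh7 and of Hep3B, and between -0.285 and 0.298 for the remaining 5 groups. Transcripts of the members have 37.7% (SLC2A2) to 58.8% (PCK2) GC, and the part of this in their values was not tested. All 15 genes of a hypoxia list were higher in replicate 2 than in replicate 1 of the DMSO cells of both lines, by a median of 1.63 in Huh7 and 0.73 in Hep3B (log2). All 18 hepatocyte markers were detected in every library, with summed levels of 13461 to 18667 CPM in Huh7 parental and 20950.2 to 26144 CPM in Hep3B parental cells. The sums were 113 to 535 CPM in Huh7-IR, 1440.2 to 3021 in Huh7-CR, 3882 to 11455 in Hep3B-IR and 2385 to 3803 in Hep3B-CR cells, and 27702 to 32076 and 38814 to 45722 in the DMSO cells of Huh7 and Hep3B. In bulk RNA, fewer cells that express a gene and less RNA per cell cannot be told apart.

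The 250 bases upstream of the RefSeq start are shown for 2 members that were low or near silent (G6PC1 and SLC2A2) and 2 that rose in resistant cells (PCK2 and PPARGC1A), 5′ to 3′ on the strand of the gene, with every CpG dinucleotide in capitals. Coordinates are on GRCh38.p14 and sequences are from RefSeq, in which 7 of the 9 members were matched. The windows are chr17:42900549-42900798 (plus strand) for G6PC1 and chr3:171026721-171026970 (minus strand) for SLC2A2. Those of the risen members are chr14:24094061-24094310 (plus strand) for PCK2 and chr4:24472906-24473155 (minus strand) for PPARGC1A. The PPARGC1A window lies far upstream of the gene as annotated on GRCh37, which spans 23756664 to 23905712. Its CpG and motif values therefore describe a distant start, and whether these cells use that start was not tested.
G6PC1: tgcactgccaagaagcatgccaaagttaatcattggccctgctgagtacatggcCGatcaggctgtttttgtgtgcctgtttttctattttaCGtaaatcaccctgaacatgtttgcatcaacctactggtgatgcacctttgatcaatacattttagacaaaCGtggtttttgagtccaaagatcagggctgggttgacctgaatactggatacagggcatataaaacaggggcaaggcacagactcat
SLC2A2: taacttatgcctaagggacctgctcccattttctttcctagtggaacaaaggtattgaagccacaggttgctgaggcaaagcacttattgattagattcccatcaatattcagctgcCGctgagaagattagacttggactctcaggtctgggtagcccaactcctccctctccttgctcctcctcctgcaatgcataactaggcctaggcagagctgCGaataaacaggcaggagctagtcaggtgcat
PCK2: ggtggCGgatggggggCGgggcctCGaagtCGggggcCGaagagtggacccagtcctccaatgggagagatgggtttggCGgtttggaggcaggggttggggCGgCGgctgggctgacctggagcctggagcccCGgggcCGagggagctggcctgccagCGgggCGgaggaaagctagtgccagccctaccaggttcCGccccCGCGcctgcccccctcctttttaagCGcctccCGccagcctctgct
PPARGC1A: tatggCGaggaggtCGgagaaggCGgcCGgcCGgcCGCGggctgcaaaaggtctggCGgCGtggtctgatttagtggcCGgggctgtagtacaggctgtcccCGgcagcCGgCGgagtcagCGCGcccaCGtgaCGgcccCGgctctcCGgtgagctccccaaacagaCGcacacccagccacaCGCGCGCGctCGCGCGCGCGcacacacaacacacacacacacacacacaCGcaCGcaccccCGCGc

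The G6PC1 and SLC2A2 windows hold 3 and 2 CpG dinucleotides, and those of PCK2 and PPARGC1A hold 17 and 33, against a median of 11 in 27305 promoters of the same length. GC content is 44% for G6PC1, 48.8% for SLC2A2, 71.6% for PCK2 and 70.8% for PPARGC1A, and the median promoter has 58.0%. The FBP1, SLC37A4 and PYGL windows are also CpG-rich, with 26, 21 and 27 CpG dinucleotides. FBP1 was itself a low member (median 0.926 CPM over all libraries), so low members were not all CpG-poor. On both strands, 9 motifs were searched: the cAMP response element TGACGTCA and its shorter form TGACG, TGATGNAA (C/EBP-ATF response element), GTAAACA (FOXO), CAAAGTCC (HNF4), GTTAAT (HNF1), TTGCNNAA (C/EBP), ACGTG (core of the hypoxia response element) and CACGTG (E box, which contains ACGTG). The G6PC1 window holds TGATGNAA, GTTAAT and ACGTG, which occur in 3.19%, 6.22% and 18.7% of all promoters. In the PPARGC1A window CACGTG overlaps ACGTG and TGACG, and these occur in 6.49%, 18.7% and 21.7% of all promoters. No motif of the 9 lies in the other 5 windows. A match is a run of letters and was not tested for binding.

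**Figure D1:**
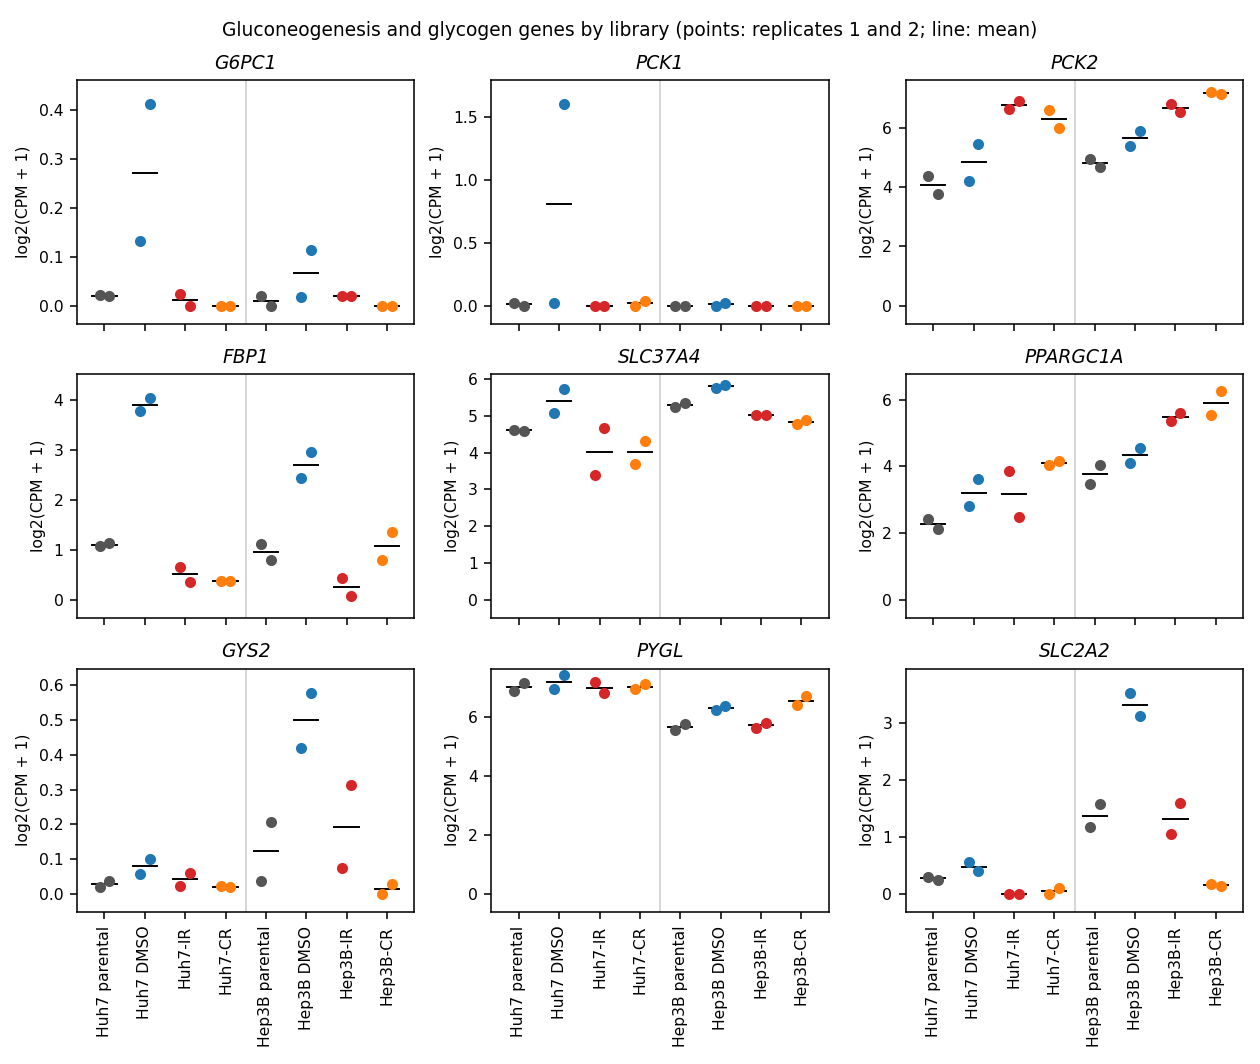
Level of each gene by library, as log2(CPM + 1) on the y axis and the 8 groups on the x axis, with a point per replicate and a line at the mean of the 2. PCK2 is higher in the 8 resistant libraries (63.0 to 145 CPM) than in the 4 parental ones (12.7 to 29.7 CPM), and FBP1 is highest in the DMSO libraries of both lines; the y axes differ between panels.

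G6PC1, on chromosome 17 (41052814 to 41066455, GRCh37, plus strand), encodes the catalytic subunit that releases free glucose. Its 16 libraries held between 0 and 23 reads, 6 of them 0, and none reached 1 CPM. The highest values were 0.330 and 0.0965 CPM in Huh7 DMSO replicates 2 and 1, followed by 0.0822 CPM in Hep3B DMSO replicate 2. Every parental, IR and CR library held at most 1 read. A count of 0 allows up to 3 reads, so a fall of G6PC1 in resistant cells was not detectable at this depth. No resistant library came near the 23 reads of Huh7 DMSO replicate 2, and a rise of a few reads could not be seen.

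PCK1 (chromosome 20, 56136136 to 56143177, plus strand), the cytosolic carboxykinase, was at 0 reads in 11 of 16 libraries. Huh7 DMSO replicate 2 held 142 reads (2.04 CPM), while replicate 1 of the same group held 1 read. No other library had over 2 reads. The library with PCK1 reads is the one whose 15 hypoxia-list genes summed to 1656 CPM, against 474 CPM in replicate 1, and the part of this in the PCK1 value was not tested.

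GYS2 (chromosome 12, 21689041 to 21757781, minus strand), the liver glycogen synthase, never exceeded 0.493 CPM. Its highest values were 0.338 and 0.493 CPM in Hep3B DMSO cells (26 and 36 reads). Hep3B-IR cells held 0.0535 and 0.242 CPM and Hep3B parental cells 0.0269 and 0.155 CPM, so these 2 groups overlapped. Hep3B-CR cells held 0 and 1 read, and the 8 Huh7 libraries held 1 to 5 reads each.

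PCK2 lies on chromosome 14 (24563262 to 24579807, GRCh37, plus strand) and encodes the mitochondrial carboxykinase. In Huh7 the levels were 19.5 and 12.7 CPM in parental, 98.5 and 119 CPM in IR and 95.7 and 63.0 CPM in CR cells. In Hep3B they were 29.7 and 24.4 CPM in parental, 112 and 91.0 CPM in IR and 145 and 141 CPM in CR cells. All resistant libraries lay above all parental ones of both lines. For Huh7-IR the log2 fold change was 2.71 (adjusted p = 4.67e-05) and for Huh7-CR 2.23 (adjusted p = 0.000353). For Hep3B-IR it was 1.87 (adjusted p = 0.00166) and for Hep3B-CR 2.36 (adjusted p = 0.000297), each with an SE of 0.35 from limma. PCK2 was the only member called higher in all 4 comparisons, as were 5.28% of all genes tested, and no member was called lower in all 4, as 2.88% of genes were.

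DMSO cells held 17.4 and 43.0 CPM of PCK2 in Huh7 and 40.9 and 58.2 CPM in Hep3B. Neither DMSO group passed the test against parental cells, with log2 differences of 0.77 (adjusted p = 0.202) and 0.83 (adjusted p = 0.286). Huh7 DMSO replicate 2, the library high in hypoxia genes, decided the Huh7 value: without replicate 1 the difference was 1.39 and passed, and without replicate 2 it was 0.14. Against DMSO cells PCK2 was still higher in all 4 resistant lines, by 1.94 and 1.47 (log2) for the IR and CR cells of Huh7, and by 1.03 and 1.53 for those of Hep3B, with adjusted p of 0.000573, 0.00542, 0.0353 and 0.00446.

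FBP1 lies on chromosome 9 (97365415 to 97402531, GRCh37, minus strand) and encodes the enzyme of a regulated step opposed to phosphofructokinase. Parental cells held 1.11 and 1.19 CPM in Huh7 and 1.16 and 0.746 CPM in Hep3B. Levels were 0.58 and 0.279 CPM in Huh7-IR, 0.294 and 0.301 CPM in Huh7-CR and 0.348 and 0.0569 CPM in Hep3B-IR cells, all below every parental library. Hep3B-CR cells held 0.741 and 1.56 CPM and overlapped their parental cells. On the log2(CPM + 1) scale, which understates the change of so low a gene, the differences were -0.60 (adjusted p = 0.0455), -0.73 (adjusted p = 0.0259), -0.70 (adjusted p = 0.0377) and 0.12 (adjusted p = 0.727), with an SE of 0.23.

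The 3 falls of FBP1 were also called on the recovered reads, with adjusted p of 0.0343, 0.0163 and 0.0148 by edgeR and 0.0105, 0.00179 and 0.000782 by DESeq2 (Huh7-IR, Huh7-CR and Hep3B-IR). The limma calls were close to the threshold, and the differences stayed below 0 with each library left out. In Huh7-IR the call was lost without either parental library or without Huh7-IR replicate 2 (-0.75 to -0.44 over the 4 libraries left out in turn). In Huh7-CR it was lost without any 1 of the 4 libraries (-0.76 to -0.70), and in Hep3B-IR likewise (-0.88 to -0.53).

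In DMSO cells FBP1 stood at 12.8 and 15.5 CPM in Huh7 and at 4.41 and 6.74 CPM in Hep3B. Both DMSO groups lay above all other libraries of their line. The log2 differences from parental cells were 2.81 in Huh7 (SE 0.23, adjusted p = 0.000216) and 1.74 in Hep3B (SE 0.23, adjusted p = 0.00338). Both calls were lost with the groups compared modelled alone, and the Hep3B call also with edgeR on recovered reads. With DESeq2 both were kept. The Hep3B call was lost without Hep3B DMSO replicate 2, where the range over libraries left out was 1.48 to 2.00. With DMSO cells as the reference, FBP1 was lower in all 4 resistant lines. The log2 differences were -3.41 for Huh7-IR (adjusted p = 3.19e-07), -3.54 for Huh7-CR (adjusted p = 2.91e-07), -2.44 for Hep3B-IR (adjusted p = 1.16e-05) and -1.62 for Hep3B-CR (adjusted p = 0.000228). The hepatocyte marker sums given above were also higher in the DMSO than in the parental cells of both lines, and their part in the FBP1 values was not tested.

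SLC37A4 (chromosome 11, 118894461 to 118901616, minus strand) carries glucose-6-phosphate into the endoplasmic reticulum. It was at 23.6 and 22.8 CPM in Huh7 parental, 9.42 and 24.2 CPM in Huh7-IR and 12 and 18.9 CPM in Huh7-CR cells. Hep3B parental cells held 36.9 and 39.5 CPM, Hep3B-IR cells 31.7 and 31.4 CPM and Hep3B-CR cells 26.5 and 28.6 CPM. All resistant libraries except Huh7-IR replicate 2 lay below the parental ones of their line, and none of the 4 comparisons passed the test, with log2 differences of -0.58, -0.59, -0.27 and -0.46 (SE 0.34, adjusted p 0.159 to 0.601). Without Huh7-IR replicate 2 the Huh7-IR difference was -1.22 and passed.

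DMSO cells had the highest SLC37A4 levels of each line, at 32.4 and 52.1 CPM in Huh7 and 53.1 and 55.8 CPM in Hep3B. The differences from parental cells did not pass (0.80, adjusted p = 0.172, and 0.50, adjusted p = 0.497). Against DMSO cells SLC37A4 was lower for Huh7-IR (-1.38, adjusted p = 0.00428), Huh7-CR (-1.39, adjusted p = 0.00591) and Hep3B-CR (-0.96, adjusted p = 0.0399), and the Hep3B-IR difference was -0.77 (adjusted p = 0.0930).

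PPARGC1A (chromosome 4, 23756664 to 23905712, minus strand) stood at 4.32 and 3.33 CPM in Huh7 parental, 13.7 and 4.55 CPM in Huh7-IR and 15.6 and 16.8 CPM in Huh7-CR cells. In Hep3B it stood at 10.1 and 15.4 CPM in parental, 40.1 and 47.2 CPM in IR and 45.3 and 75.6 CPM in CR cells. Every resistant library lay above the parental ones of its line. For Huh7-CR the log2 difference was 1.84 (adjusted p = 0.00402), for Hep3B-IR 1.72 (adjusted p = 0.00784) and for Hep3B-CR 2.14 (adjusted p = 0.00181), with an SE of 0.42. On the recovered reads, DESeq2 called PPARGC1A higher in Huh7-IR cells and edgeR did not. In Huh7-IR cells, whose replicates differed, the limma difference was 0.91 (adjusted p = 0.0808). It was 1.61 and passed without Huh7-IR replicate 2, and 0.21 without replicate 1.

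The Hep3B-IR call for PPARGC1A was lost without Hep3B parental replicate 1 or Hep3B-IR replicate 2, with differences of 1.44 to 2.00 over the libraries left out. DMSO cells held 5.97 and 11.3 CPM in Huh7 and 16.3 and 22.6 CPM in Hep3B, above the parental libraries of each line. Against DMSO cells the Hep3B rises passed (1.14, adjusted p = 0.0478, and 1.56, adjusted p = 0.0106), while the Huh7 differences were -0.04 (adjusted p = 0.953) in IR and 0.90 (adjusted p = 0.106) in CR cells. The Huh7-CR rise of PPARGC1A therefore held against parental and not against DMSO cells.

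PYGL (chromosome 14, 51324609 to 51411201, minus strand) was at 119 and 142 CPM in Huh7 parental, 124 and 171 CPM in Huh7 DMSO, 144 and 112 CPM in Huh7-IR and 123 and 137 CPM in Huh7-CR cells. The 4 Huh7 groups overlapped. The log2 differences from Huh7 parental cells were -0.03 in IR (95% interval -0.43 to 0.36) and 0.00 in CR cells (95% interval -0.39 to 0.40). Hep3B cells held less PYGL, with 46.3 and 53.9 CPM in parental, 75.5 and 81.5 CPM in DMSO, 48.9 and 55.2 CPM in IR and 84.6 and 104 CPM in CR cells. Hep3B-CR cells lay above Hep3B parental cells by 0.89 (SE 0.18, adjusted p = 0.00238), and Hep3B-IR cells differed by 0.05 (95% interval -0.34 to 0.45). Against Hep3B DMSO cells the CR difference was 0.25 and did not pass (adjusted p = 0.299), and that of IR cells was -0.59 and was called (adjusted p = 0.0235).

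SLC2A2 (chromosome 3, 170714136 to 170744532, minus strand) was more abundant in parental Hep3B than in parental Huh7 cells. Parental Hep3B cells held 1.25 and 1.98 CPM and Hep3B-IR cells 1.07 and 2.02 CPM, which overlapped. Hep3B-CR cells held 0.132 and 0.0952 CPM, or 10 and 5 reads. The CR difference from parental cells was -1.22 (SE 0.20, adjusted p = 0.00063) on the log2(CPM + 1) scale, and the IR difference was -0.05 (95% interval -0.49 to 0.39). DMSO cells of Hep3B held 10.6 and 7.69 CPM, above all other libraries, with a log2 difference of 1.95 from parental cells (SE 0.20, adjusted p = 0.000686). This DMSO call was lost with edgeR on recovered reads and with the groups compared modelled alone, and was kept with DESeq2. Relative to DMSO cells, the difference was -2.01 for Hep3B-IR (adjusted p = 1.67e-05) and -3.17 for Hep3B-CR (adjusted p = 5.82e-07), both called.

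Huh7 cells held 0.233 and 0.188 CPM of SLC2A2 when parental, 0.469 and 0.316 CPM in DMSO and 0 and 0.0785 CPM in CR cells. Both Huh7-IR libraries were at 0 reads, at least 3.68-fold lower than the parental mean when each library is set to its floor of 3 reads. The fitted differences from parental cells were -0.27 for Huh7-IR (adjusted p = 0.264) and -0.22 for Huh7-CR (adjusted p = 0.420). On the recovered reads both edgeR and DESeq2 called SLC2A2 lower in both resistant Huh7 lines.

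**Figure D2:**
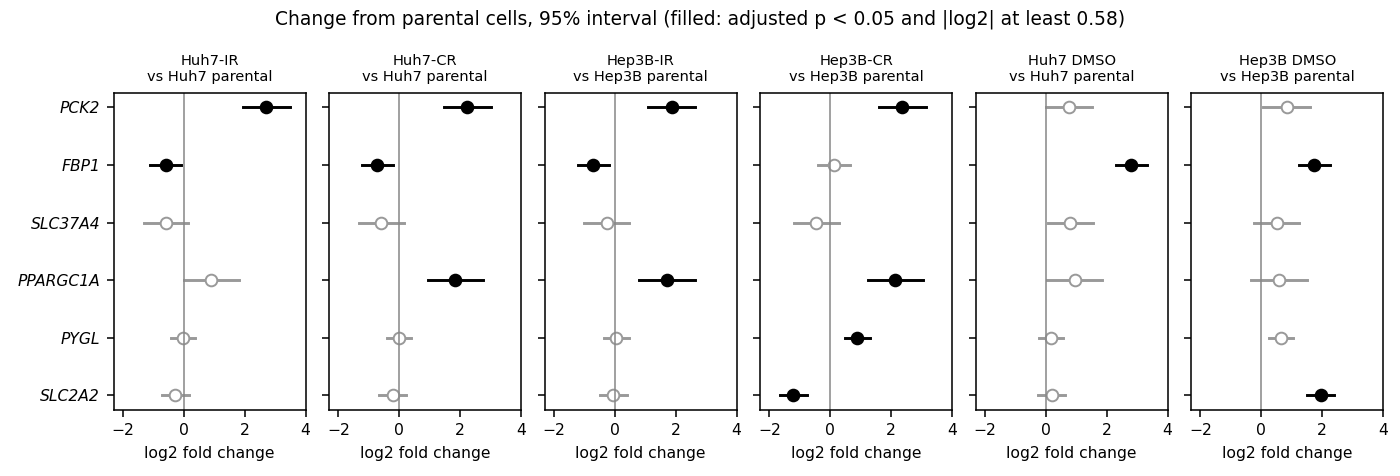
Log2 fold change from parental cells (x axis) of the 6 members tested, with 95% intervals, for the 4 resistant groups and the 2 DMSO groups. Filled points are called (adjusted p under 0.05 and a log2 change of 0.58 or more in size): PCK2 lies between 1.87 and 2.71 in the resistant groups, and FBP1 is at 2.81 and 1.74 in the DMSO groups.

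A gene was called where its adjusted p was under 0.05 and its log2 change was 0.58 or more in size. Of the 6 members tested, 2 were called in Huh7-IR (PCK2 higher, FBP1 lower), where 48.8% of all genes tested were called. In Huh7-CR 3 were called (PCK2 and PPARGC1A higher, FBP1 lower) against 34.5% of all genes, and in Hep3B-IR the same 3 genes against 27.1%. In Hep3B-CR 4 were called (PCK2, PPARGC1A and PYGL higher, SLC2A2 lower) against 32.2%. The members' median log2 change was -0.15, -0.11, 0.00 and 0.51 in these comparisons, and -0.31 in Huh7-IR with SLC2A2 at its bound, beside 0.19, 0.07, 0.06 and 0.11 for all genes tested. IR and CR cells of a line share their parental libraries. With another scaling the median of all genes in Huh7-IR was 0.04 (TMM factors) or 0.00347 (quantile normalization), and of the genes called there 52.8% or 49.8% were higher, beside 63.6% on CPM. With quantile normalization the share higher was 49.3% in Huh7-CR cells and 47.7% and 49.2% in the IR and CR cells of Hep3B, beside 60.6%, 57.9% and 61.9% on CPM. No call of a member in these 4 comparisons changed under either scaling.

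Against parental cells, DMSO cells had 1 member called in Huh7 (FBP1) and 2 in Hep3B (FBP1 and SLC2A2), all higher, while 4.83% and 1.58% of all genes were called, and 3.46% and 1.07% were called higher. All 6 members had a difference above 0 in both DMSO groups, as had 56.8% of all genes tested in Huh7 and 50.7% in Hep3B. The members' medians were 0.78 and 0.74, beside 0.05 and 0.01 for all genes. With DMSO cells as the reference, the resistant comparisons of Huh7 had 3 of the 6 members called in IR and 3 in CR cells, against 47% and 34.7% of all genes. Those of Hep3B had 5 called in IR and 5 in CR cells, against 32.1% and 32.9%.

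Between the regimens, no member was called in Huh7 by limma, edgeR or DESeq2, while 13.7% of all genes were called by limma, and 1 member had an unadjusted p under 0.05 (PPARGC1A, -0.93 in IR relative to CR, adjusted p = 0.142). This value was -1.63 and passed without Huh7-IR replicate 1. In Hep3B 3 members were called, against 11.7% of all genes. FBP1 and PYGL were lower in Hep3B-IR than in Hep3B-CR cells (-0.82, adjusted p = 0.0374, and -0.84, adjusted p = 0.0108) and SLC2A2 was higher (1.17, adjusted p = 0.00308). The FBP1 call was lost without Hep3B-IR replicate 1, Hep3B-IR replicate 2 or Hep3B-CR replicate 2 (-1.10 to -0.55), and the PYGL call without Hep3B-IR replicate 1 or Hep3B-CR replicate 2 (-0.98 to -0.69).

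The parental lines differed in 3 of the 6 members, where 42.6% of all genes were called. PYGL was higher in Huh7 (1.36, SE 0.18, adjusted p = 6.07e-05), and PPARGC1A (-1.49, SE 0.42, adjusted p = 0.0101) and SLC2A2 (-1.10, SE 0.20, adjusted p = 0.000707) were lower. The PPARGC1A call was lost without Huh7 parental replicate 2 or Hep3B parental replicate 2 (-1.78 to -1.21). The change of resistant cells, as the mean of IR and CR, was compared between the lines by an interaction contrast. By limma, edgeR and DESeq2 0 of the 6 members were called, while limma called 29.4% of all genes, and only PYGL had an unadjusted p under 0.05 (-0.49, 95% interval -0.97 to -0.00345, adjusted p = 0.117). The difference for PCK2 was 0.36 (95% interval -0.58 to 1.29) and for PPARGC1A -0.55 (95% interval -1.67 to 0.56).

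**Figure D3:**
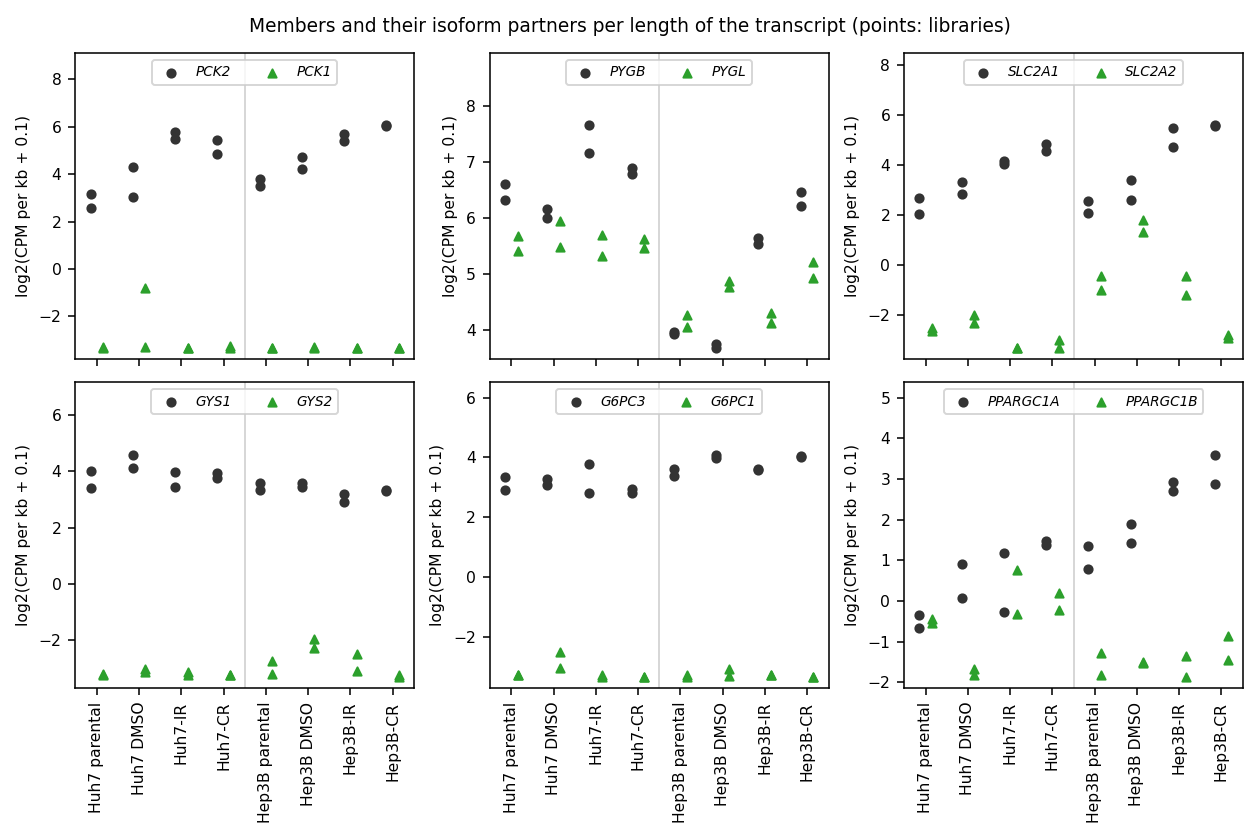
Levels of 6 pairs of related genes per kb of transcript, as log2(CPM per kb + 0.1) on the y axis, in the 8 groups on the x axis, with a point per library. PYGB lies above PYGL in all Huh7 libraries and in the IR and CR libraries of Hep3B, while PYGL lies above PYGB in Hep3B parental and DMSO libraries. GYS1 and G6PC3 lie above GYS2 and G6PC1 in all libraries.

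Several members have partners that carry out the same reaction in other tissues, and levels were compared per kb of the annotated transcript. The liver forms G6PC1, PCK1 and GYS2 were near silent while their partners were present. In Huh7 DMSO replicate 2, the only library with over 2 reads of PCK1, PCK2 was 41.8-fold higher per kb. G6PC3, the widely expressed glucose-6-phosphatase, held 10.9 to 26.7 CPM, and GYS1, the muscle-type glycogen synthase, held 26.3 to 86.2 CPM. Neither was called in any of the 4 resistant comparisons. G6PC2, FBP2 and PYGM did not pass the filter.

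PYGB, the brain-type phosphorylase, stood at 63.6 and 62.5 CPM in Hep3B parental, 204 and 190 CPM in Hep3B-IR and 304 and 362 CPM in Hep3B-CR cells. The rise was 1.63 for Hep3B-IR (log2, SE 0.16, adjusted p = 1.94e-05) and 2.38 for Hep3B-CR (adjusted p = 1.13e-06). Per kb, the ratio of PYGB to PYGL was 0.788 to 0.934 in Hep3B parental and 0.461 to 0.474 in Hep3B DMSO cells, and 2.34 to 2.84 and 2.38 to 2.45 in Hep3B-IR and Hep3B-CR cells. In Huh7 PYGB was at 400 and 328 CPM in parental and 586 and 824 CPM in IR cells (log2 difference 0.94, adjusted p = 0.000397), and at 451 and 488 CPM in CR cells (0.37, adjusted p = 0.0848). The PYGB to PYGL ratio was 1.57 to 2.29 in Huh7 parental, 1.04 to 1.61 in DMSO, 2.77 to 5.01 in IR and 2.43 to 2.48 in CR cells.

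SLC2A1 (GLUT1), the widely expressed glucose transporter, rose in all 4 resistant lines, by 1.71, 2.30, 2.73 and 3.22 (log2, SE 0.31, adjusted p 0.00055, 0.000116, 5.26e-05 and 1.44e-05, for IR and CR cells of Huh7 and then of Hep3B). Its levels in Hep3B were 14.0 and 19.3 CPM in parental, 150.0 and 88.1 CPM in IR and 162 and 161 CPM in CR cells. Per kb, SLC2A1 exceeded SLC2A2 by 9.17- to 10.5-fold in Hep3B parental cells, 1.80- to 4.35-fold in DMSO, 41.0- to 132-fold in IR and 1151- to 1589.9-fold in CR cells. SLC2A3 (GLUT3) was not called in any of the 4 comparisons. PPARGC1B, the coactivator related to PPARGC1A, was not called in the 4 comparisons either, and was lower in Huh7 DMSO than in Huh7 parental cells (-1.28, adjusted p = 0.0495). PPRC1, the third member of that family, was called in Huh7-IR cells (0.89, adjusted p = 0.000284).

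**Figure D4:**
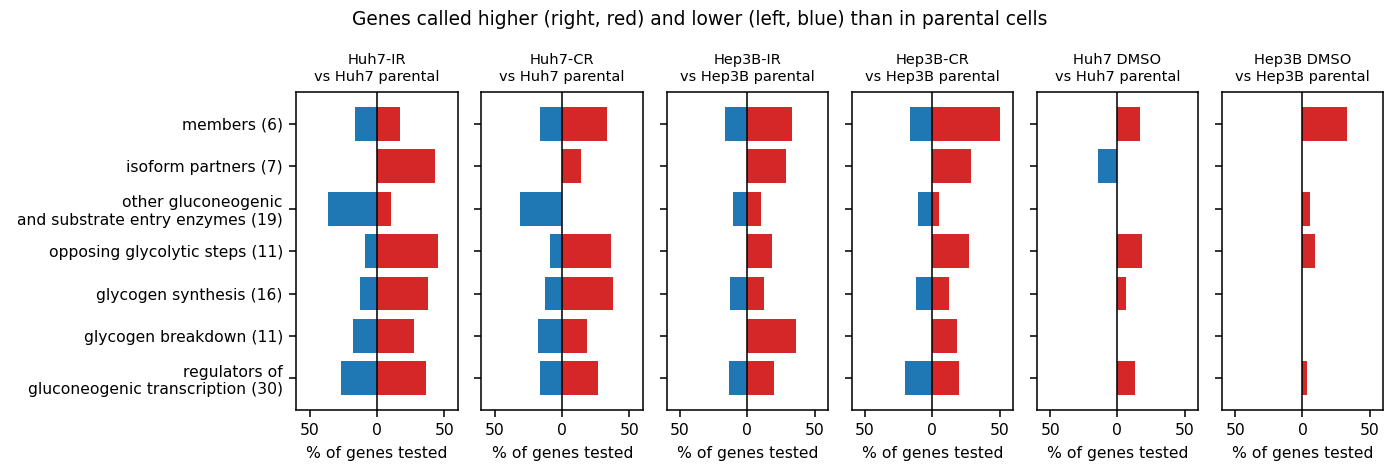
Share of the genes tested in each list (number tested in parentheses) that were called higher (red, right) and lower (blue, left) than in parental cells, as a percentage on the x axis, for the 4 resistant and the 2 DMSO groups. Substrate entry enzymes were called lower in Huh7-IR (7 of 19) and Huh7-CR (6 of 19), and opposing glycolytic steps were called higher in 5, 4, 2 and 3 of 11 in the resistant groups.

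The other genes of the pathway were taken from 5 lists. Of 19 gluconeogenic and substrate entry enzymes tested (of 21), 2 were called higher and 7 lower in Huh7-IR, and 0 and 6 in Huh7-CR cells. Hep3B-IR cells had 2 and 2, and Hep3B-CR cells 1 and 2. Of all genes tested, 31.1% were called higher and 17.8% lower in Huh7-IR, 20.9% and 13.6% in Huh7-CR, and in Hep3B 15.7% and 11.4% with IR and 20% and 12.3% with CR. MPC2, a subunit of the mitochondrial pyruvate carrier, was the only one of the list called the same way in all 4, at -2.08 and -1.44 in Huh7 and -1.43 and -2.29 in Hep3B (IR and CR, adjusted p at most 1.80e-05). The Huh7 falls included PC, the pyruvate carboxylase that makes oxaloacetate (-2.66 and -1.71), and GK, the glycerol kinase (-2.78 and -2.19). In Hep3B PC was at -0.36 and -0.44 and GK at 0.45 and 0.20, and none of these passed. PC and GK, and PKM, GYG1 and GYG2 named below, were singled out after their values were seen.

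Of 11 opposing glycolytic steps tested (of 14), 5 were called higher and 1 lower in Huh7-IR, and 4 and 1 in Huh7-CR cells. Hep3B-IR cells had 2 higher and Hep3B-CR cells 3, with 0 lower, beside the shares of all genes given above. PFKP, the platelet-type phosphofructokinase that catalyses the step opposed to FBP1, rose in all 4, by 1.90, 1.55, 4.64 and 4.98 (log2, SE 0.25). PKM, a pyruvate kinase, was the gene called lower in Huh7 (-1.29 and -1.0).

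Among 16 genes of the glycogen synthesis list, 6 were called higher and 2 lower in each of Huh7-IR and Huh7-CR cells. In each of Hep3B-IR and Hep3B-CR cells 2 were higher and 2 lower, and none was called the same way in all 4. The list joins enzymes with regulators, some of which restrain synthesis (GSK3A and GSK3B), so its counts give no direction of synthesis. The glycogenins GYG1 and GYG2, which prime the glycogen chain, were the 2 genes called lower in Huh7. Among 11 glycogen breakdown genes, 3 were called higher and 2 lower in Huh7-IR, and 2 and 2 in Huh7-CR cells, while Hep3B-IR cells had 4 higher and Hep3B-CR cells 2, with 0 lower. As a background for both glycogen lists, the IR cells of Huh7 had 31.1% of all genes called higher and 17.8% lower. The CR cells of Huh7 had 20.9% and 13.6%. For Hep3B these shares were 15.7% and 11.4% under IR, and 20% and 12.3% under CR. PRKACB, a catalytic subunit of protein kinase A, was higher in all 4 (1.16, 1.29, 0.75 and 0.99).

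Regulators of gluconeogenic transcription went both ways. Of 30 tested (of 31), 11 were called higher and 8 lower in Huh7-IR, and 8 and 5 in Huh7-CR cells. Hep3B-IR cells had 6 and 4 and Hep3B-CR cells 6 and 6. Shares of all genes called higher were 31.1%, 20.9%, 15.7% and 20% in these comparisons, and those called lower 17.8%, 13.6%, 11.4% and 12.3%. In all 4 comparisons 5 regulators were higher and 2 lower, as were 5.28% and 2.88% of all genes tested. CEBPA, a factor of hepatocyte differentiation, was lower in all 4, with log2 differences of -4.42 and -4.89 in Huh7 and -1.43 and -1.27 in Hep3B (IR and CR). ESRRG, an orphan nuclear receptor, was lower likewise, with -1.93 and -1.27 in Huh7 and -3.17 and -3.57 in Hep3B. CEBPB, the related factor, was higher by 2.30, 1.80, 1.88 and 2.47, and IRS2, an adaptor of insulin signaling, by 2.64, 1.89, 2.39 and 2.13. In the DMSO cells 4 of the 30 regulators were called higher in Huh7 and 1 in Hep3B, beside the 3.46% and 1.07% of all genes called higher.

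The same comparisons called 16, 15, 11 and 14 of 18 hepatocyte markers lower, and 8, 9, 5 and 6 of 10 mesenchymal markers tested higher. In the opposite direction, 1 hepatocyte marker was called higher (SERPINA1) and 1 mesenchymal marker lower (PDGFRB), both in Hep3B-IR cells. TAT is in both the hepatocyte and the substrate entry list. Of the 15 hypoxia-list genes, 6, 3, 2 and 3 were called higher and 1 lower (EGLN3 in Huh7-IR), beside the 31.1%, 20.9%, 15.7% and 20% of all genes called higher. These 3 exceptions were named after their values were seen. Mesenchymal markers summed to 5029 to 5559 CPM in Huh7 parental, 8891 to 11128 in Huh7-IR and 13440 to 14520 in Huh7-CR cells, and to 2193 to 2257 in Hep3B parental, 4106 to 4953 in Hep3B-IR and 4080.3 to 5491 in Hep3B-CR cells, with at most 2 of the 12 genes at 0. The part of these in the members' values was not tested.

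The genes whose pattern over the 16 libraries was most like that of a member, by Pearson's r after centring each line on its mean, are a description, since all libraries of a line share their controls. For PCK2 they were PHGDH (0.980), the first enzyme of serine synthesis, RPL13A (0.978) and SRC (0.976). For FBP1 they were TST (0.946), ESPN (0.940) and PZP (0.939). SLC37A4 was most like SEMA4G (0.960), FRAT1 (0.955) and PCSK6 (0.954), and PPARGC1A was most like C22orf39 (0.919), YIPF4 (0.914) and CCNYL1 (0.903). For PYGL they were CD74 (0.891), SLC31A1 (0.885) and ATP6V0E2-AS1 (0.878), and for SLC2A2 INHBC (0.960), NAT8B (0.941) and SOX5 (0.935).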

How the data were processed

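The 16 libraries of poly-A+ RNA fall by their labels into 4 pairs of replicates for each line. The authors aligned the reads to hg19 with STAR, kept unique hits and counted over RefSeq exons with QuasR. The methods state biological triplicates, and they and the labels name different sequencers. The deposited table holds CPM, which the authors scaled to the library total. Whole reads were recovered from it for 100% of values within 0.05 reads.

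Using limma 3.58.1 (R 4.3.3, trend), log2(CPM + 1) was modelled in the 8 groups together for the 15019 genes that reached 1 CPM in 2 or more libraries. The p-values were adjusted by Benjamini-Hochberg over all of them. The study's methods use edgeR on counts, and edgeR 4.0.16 (quasi-likelihood) and DESeq2 1.42.0 on recovered reads were alternatives here, beside the pseudocount, filter, scaling, reference group, replicate block and each library left out. The fit was checked on simulated data. Positions are from GENCODE on GRCh37, and promoters from RefSeq on GRCh38.p14. Every member and isoform partner was named, and from each other list up to 2 genes in each direction among those called the same way in all 4 resistant comparisons. PC, GK, PKM, GYG1, GYG2, SERPINA1, PDGFRB and EGLN3 were named outside this rule, after their values were seen. The 9 members and all lists were chosen with earlier results of these data known. Intervals and floors cover counting error only where they come from reads.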

Additional observations from a re-analysis of the deposited data

Results flagged for a closer look

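For 8 of 19 isoform partners and other pathway genes named (42.1%), the resistant change differed between the lines by the interaction contrast of limma. The 19 include PC, GK, PKM, GYG1 and GYG2, which were singled out after their falls in Huh7 were seen. That choice partly set this share, which is a description. Over the 5 pathway lists the contrast called 29 of 87 genes tested (33.3%), beside 29.4% of all genes. As Huh7 minus Hep3B on the log2 scale, the differences were -1.35 for PYGB (adjusted p = 0.000382), -3.09 for PFKP (adjusted p = 1.99e-05), -3.30 for CEBPA (adjusted p = 6.94e-05) and 1.77 for ESRRG (adjusted p = 0.00186). For genes singled out after their values were seen they were -1.79 for PC (adjusted p = 0.00511), -2.81 for GK (adjusted p = 4.65e-06), -0.99 for PKM (adjusted p = 0.0173) and -1.29 for GYG2 (adjusted p = 0.00143), from limma.

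For 3 members, the 2 regimens differed in Hep3B, as IR minus CR: -0.82 for FBP1 (adjusted p = 0.0374), -0.84 for PYGL (adjusted p = 0.0108) and 1.17 for SLC2A2 (adjusted p = 0.00308). In Huh7 the same differences were 0.13 for FBP1, -0.04 for PYGL and -0.05 for SLC2A2, and whether the lines differ in this was not tested. Groups of 2 libraries allow no test for an outlying library.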

How the results depend on the processing

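Of 966 values of single members under alternatives, 897 stayed on their side of the threshold, 42 lost a call and 25 gained one. A further 2 values, uncalled in the main fit, were called with the opposite sign (reversals). Among the 897, 862 kept their sign and 35, uncalled in both settings, changed it. PCK2 kept its call in the 4 resistant comparisons under all 16 alternatives. The 2 reversals came with DMSO cells as the reference: PYGL in Hep3B-IR at -0.59 and FBP1 in Hep3B-CR at -1.62. For the number of members called, the Huh7-IR count of 2 was 1 with the replicate block, a pseudocount of 4 CPM or no filter. It was 3 with edgeR and 4 with DESeq2, and the Huh7-CR count of 3 was 4 with either tool. The Hep3B-IR count of 3 was 5 and the line difference of 0 was 2 with DMSO cells as the reference. With the groups compared modelled alone, the DMSO counts of 1 and 2 were 0 and 0 and the parental count of 3 was 5. The Hep3B DMSO count was 0 with edgeR. At an unadjusted p, the DMSO counts were 4 and 4, and the Huh7 regimen count of 0 was 1. The Hep3B regimen count of 3 was 1 with a pseudocount of 4 CPM. The causes were not tested.

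Leaving out 1 library at a time, the counts ranged from 1 to 3 in Huh7-IR, stayed at 2 in Huh7-CR, ranged from 1 to 2 in Hep3B-IR and stayed at 4 in Hep3B-CR. They ranged from 1 to 2 for both DMSO groups, 0 to 1 and 1 to 3 for the Huh7 and Hep3B regimens and 2 to 3 for the parental lines, and stayed at 0 for the line difference.

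Replicate numbers are shared by the groups and nothing in the labels ties them. The correlation of same-numbered deviations ran from -0.22 (Huh7 parental and DMSO) to 0.44 (Huh7-IR and Huh7-CR). Between the DMSO groups of Huh7 and Hep3B it was 0.41. As its sign varied, the numbers were not taken as pairs, and whether some groups share a replicate effect was not tested. The replicate block ended 1 member call, FBP1 in Huh7-IR.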
